A study of Mus musculus with 9 samples.

Results

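The vascular endothelial growth factor (VEGF) and angiopoietin family was followed here through 10 genes: the ligands Vegfa, Vegfb, Vegfc, Vegfd and Pgf, the receptors Kdr, Flt1 and Flt4, and the angiopoietins Angpt1 and Angpt2. The genes were chosen by symbol, and the family was picked after results of both comparisons were known, so their changes are given as a description and are not independent evidence. All 10 were found among the 24537 gene names of the table that compares both sham tissues, as 23 of its 35745 transcripts. The table of TAC against sham quadriceps held 6 of them among its 587 genes, all of which carry an extracellular annotation. Those were Vegfa, Vegfb, Vegfd, Flt1, Angpt1 and Angpt2, and the effect of TAC on Vegfc, Pgf, Kdr and Flt4 was not analysed here.

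The libraries were RNA sequencing of C57Bl/6J wild-type mice, with 3 of sham heart, 3 of sham quadriceps muscle and 3 of TAC quadriceps muscle. Transverse aortic constriction (TAC) loads the left ventricle with pressure by a band around the aortic arch, and the study used it as a model of heart failure with muscle wasting. Surgery was performed at 8 weeks of age and tissue was taken 12 weeks later, from mice that had received either TAC or the sham operation alone. The comparison of both sham tissues sets skeletal muscle against heart muscle without TAC, and no heart after TAC was among the samples. Total counts ran from 23383452 to 38382751 over both sham tissues, and TAC libraries 1 and 2 had 48614494 and 48999600. A further TAC column was numbered 4 in the table, while the sample labels run to 3, and it was used as the third TAC library with no pairing. Labels of the tissues fitted their markers in the sham libraries, since all 5 heart muscle markers were lower and all 5 skeletal muscle markers higher in quadriceps than in heart. In tissue RNA, fewer cells of a type and less RNA per cell cannot be told apart.

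VEGF-A binds Kdr (VEGF receptor 2), the main signaling receptor of blood vessel endothelium, and Flt1 (VEGF receptor 1), which binds VEGF-A tightly and also exists as a soluble form that traps it. VEGF-B and placental growth factor (Pgf) bind Flt1 alone, while VEGF-C and VEGF-D bind Flt4 (VEGF receptor 3), the receptor of lymphatic endothelium. Angiopoietin 1, made by cells around the vessel, activates the Tie2 receptor (Tek) and stabilizes capillaries, and angiopoietin 2, made by endothelium, mostly opposes it. In both heart and skeletal muscle the muscle fibres themselves are a main source of VEGF-A and VEGF-B, and oxygen sensing through hypoxia-inducible factors drives Vegfa.

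Vegfa and Vegfb are each made in several spliced forms, and the variable segments are shown because the reads that fell in them differed between heart and quadriceps, as described further on. Exon 6 of Vegfa (GRCm38, chr17:46022277-46022348, minus strand, 72 bases) and exon 7 (chr17:46020991-46021122, minus strand, 132 bases) lie wholly in the coding sequence. Both encode basic, heparin-binding stretches, so the form that holds both is kept at the cell surface and matrix, and the form that lacks both diffuses freely. The variable segment of Vegfb is the first 101 bases of its exon 6 (chr19:6985496-6985596, minus strand, coding). Its use shifts the reading frame, so that the longer transcript ends in another carboxy terminus than the shorter one, whose product binds heparin. The reference sequences, from the GENCODE vM21 transcripts and written 5′ to 3′ in the sense of the transcript, follow, with no part in capitals.
Vegfa exon 6: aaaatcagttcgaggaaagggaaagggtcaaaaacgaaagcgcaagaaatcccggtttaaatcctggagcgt
Vegfa exon 7: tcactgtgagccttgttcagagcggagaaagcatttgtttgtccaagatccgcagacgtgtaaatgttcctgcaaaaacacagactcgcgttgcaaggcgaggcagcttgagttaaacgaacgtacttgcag
Vegfb variable part of exon 6: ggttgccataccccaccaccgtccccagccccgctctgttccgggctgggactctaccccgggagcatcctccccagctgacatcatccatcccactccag

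In quadriceps after TAC, Vegfd and Flt1 were higher than after sham surgery in edgeR's quasi-likelihood test, whose p-values were adjusted by Benjamini-Hochberg over all 586 genes tested, and no member was lower. Vegfd moved far more than the others, 15.4-fold, while Flt1 differed 1.70-fold and passed the threshold of 0.05 narrowly. The count was 2 of 6 higher against 17.7% of all genes tested, and 0 of 6 lower against 11.9%. Nothing is read from these counts, because the family was picked with this comparison in view. The median log2 fold change was 0.14 over the 6 members and 0.03 over all genes tested. Values below are counts scaled by the trimmed mean of M-values (TMM), called normalized counts, and refer to the genes of this selected table only.

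Vegfd (chrX:164373378-164402650, plus strand, transcript NM_010216) encodes VEGF-D, a secreted growth factor for lymphatic and blood vessels that is released as a precursor and cut into its active form. Its normalized counts were 87.8, 70.7 and 60.5 in sham libraries 1, 2 and 3 and 2025, 226 and 1134 in TAC libraries 1, 2 and 4. Every TAC library was above every sham library, and the TAC libraries were themselves far apart, with library 2 well below libraries 1 and 4. The sham mean was 73.0 ± 13.8 and the TAC mean 1128 ± 900 (SD, n = 3 each). On the log2 scale the fold change was 3.94 (SE 0.70, edgeR adjusted p = 0.00790). The call held in every alternative that was run, with a log2 fold change of 3.14 to 4.43 and an adjusted p of at most 0.0380.

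The ratio of Vegfd to Vegfa per transcript length does not depend on how the libraries are scaled. In sham quadriceps it was 0.0337, 0.0283 and 0.0256, and in TAC quadriceps it was 0.885, 0.0830 and 0.483 in libraries 1, 2 and 4. Vegfd transcripts were thus rare beside those of Vegfa in sham muscle, and in TAC library 1 they came close to them.

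The genes with the pattern most like that of Vegfd over the 6 quadriceps libraries were Il6ra, Flrt1, Ctsl and Aebp1, at root mean square distances of 0.642, 0.742, 0.941 and 1.06 between centred log2 normalized counts. Il6ra, a subunit of the interleukin-6 receptor, had 30.1, 29.3 and 42.6 normalized counts in sham and 2435, 232 and 694 in TAC libraries 1, 2 and 4. Flrt1, a leucine-rich transmembrane protein, had 11.4, 29.3 and 34.4 in sham and 349, 63.6 and 205.3 in TAC. For both, as for Vegfd, TAC library 1 was highest, library 4 next and library 2 lowest. Ctsl (6992, 3178 and 9771) and Aebp1 (4319, 3167 and 6420) were also lowest in TAC library 2 of the 3 but highest in library 4.

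Markers of other cell types differed between the same libraries. Of 7 fibroblast markers, 6 were in the table and 5 were lower after TAC, against 11.9% of all genes tested. Col3a1 among them had a log2 fold change of -3.95 (SE 0.33, edgeR adjusted p = 0.000557). Dcn was not lower, at means of 6474 in sham and 7301 in TAC (log2 fold change 0.17, edgeR adjusted p = 0.601). The sum of all 6 was 10028 to 13053 normalized counts in sham and 6111 to 9191 in TAC. Dcn made up most of that sum in TAC. The 3 adipocyte markers in the table (Adipoq, Cfd and Retn) summed to 2302, 1149 and 315 in sham and to 1935, 415 and 2860 in TAC libraries 1, 2 and 4, and none passed the test. Reln, the one lymphatic endothelial marker in the table, stood at 44.7, 34.4 and 27.5 in sham and at 98.8, 34.3 and 23.0 in TAC, and did not pass it either. Macrophage markers in the table (C1qa, C1qb and Lyz2) summed to 625 to 880 in sham and 305 to 395 in TAC. The part of any of these in the difference of Vegfd was not tested.

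**Figure D1:**
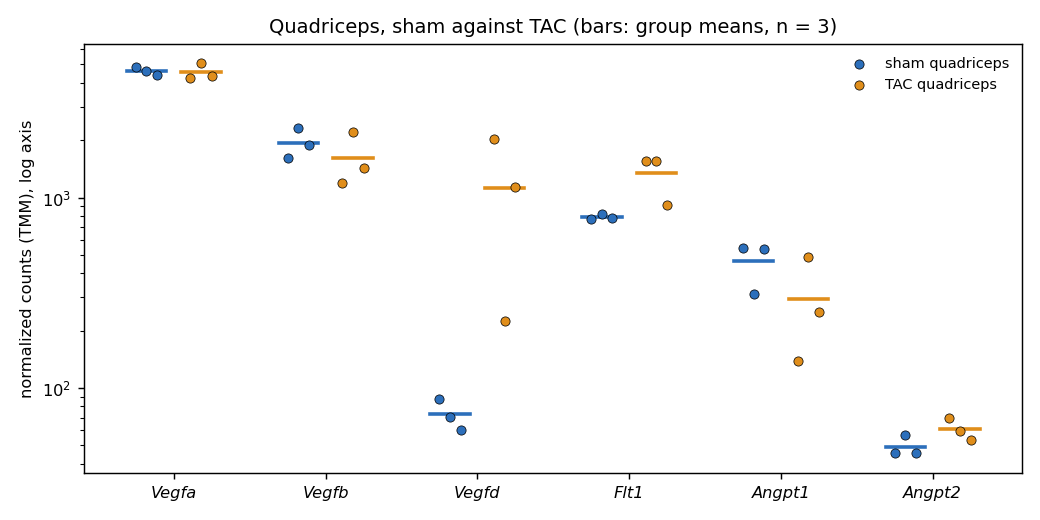
Normalized counts (log axis) of the 6 family members in the table of TAC against sham quadriceps, 1 point a library in the order 1, 2, 3 (sham) and 1, 2, 4 (TAC), with bars at the group means. Vegfd lies between 60.5 and 87.8 in sham and between 226 and 2025 in TAC, Flt1 separates by less, and the other 4 members overlap between the groups.

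Flt1 (chr5:147561604-147726011, minus strand) was the only receptor of the family in this table. Its normalized counts were 774, 819 and 777 in sham and 1552, 1556 and 908 in TAC libraries 1, 2 and 4, so the groups did not overlap and TAC library 4 lay near the sham values. The log2 fold change was 0.76 (SE 0.25, edgeR adjusted p = 0.0487). The call was lost when library totals were used for scaling (log2 fold change 0.33, adjusted p = 0.226), with a stricter count filter (0.71, adjusted p = 0.0620) and without any single library except TAC library 4.

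The endothelial markers Pecam1 and Vwf were also higher after TAC, with log2 fold changes of 0.63 (SE 0.18, edgeR adjusted p = 0.0341) and 0.84 (SE 0.25, adjusted p = 0.0346), while Egfl7 was not called at 0.07. The 3 markers, of a list of 8, summed to 1125 to 1347 normalized counts in sham and 1695 to 1962 in TAC. With library totals, Pecam1 stood at -0.02 and Vwf at 0.09, neither of them called, and Egfl7 was called lower at -0.94 (SE 0.27, adjusted p = 0.0333). Per transcript length, Flt1 was 0.529, 0.567 and 0.482 of Pecam1 in sham and 0.639, 0.704 and 0.388 in TAC libraries 1, 2 and 4, and these ratios overlapped. Whether the endothelial share had a part in the difference of Flt1 was not tested.

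Vegfa, the most abundant member by counts, stood at 4841, 4634 and 4391 normalized counts in sham and 4250, 5055 and 4358 in TAC, and the groups overlapped. Its log2 fold change was -0.02 (SE 0.18, edgeR adjusted p = 0.952). Vegfb, which acts through Flt1 and is plentiful in oxidative muscle, stood at 1611, 2311 and 1882 in sham and 1194, 2199 and 1435 in TAC, a log2 fold change of -0.27 (SE 0.27, adjusted p = 0.495). Neither ligand passed the test in any alternative, although with library totals their log2 fold changes were -0.64 (adjusted p = 0.0547) and -0.82 (adjusted p = 0.0552).

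Angpt1 was at 546, 310 and 539 normalized counts in sham and at 139, 490 and 251 in TAC libraries 1, 2 and 4. Sham library 2 and TAC library 2 each stood apart from the rest of its group, and the groups overlapped. The log2 fold change of -0.66 (SE 0.45, edgeR adjusted p = 0.300) did not pass the test, and without TAC library 2 it was -1.25 with an adjusted p of 0.0380. Angpt2 was at 45.5, 56.6 and 45.4 in sham and at 69.7, 59.7 and 53.1 in TAC, with a log2 fold change of 0.31 (SE 0.25, adjusted p = 0.398) that turned to -0.24 (adjusted p = 0.539) with library totals.

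The ratio of Angpt1 to Angpt2, the agonist of Tie2 over its context-dependent antagonist, is again free of the scaling. Per transcript length it was 9.89, 4.52 and 9.79 in sham quadriceps and 1.65, 6.77 and 3.90 in TAC libraries 1, 2 and 4. The TAC mean of 4.11 ± 2.57 (SD, n = 3) was below the sham mean of 8.07 ± 3.07 (SD, n = 3), but the groups overlapped. Angpt2 lies within Mcph1 on the opposite strand, and an antisense gene, Gm17473, overlaps Angpt1. Whether the counting used strand is not given in the sources used here, so reads of these overlapping genes may not be told apart.

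**Figure D2:**
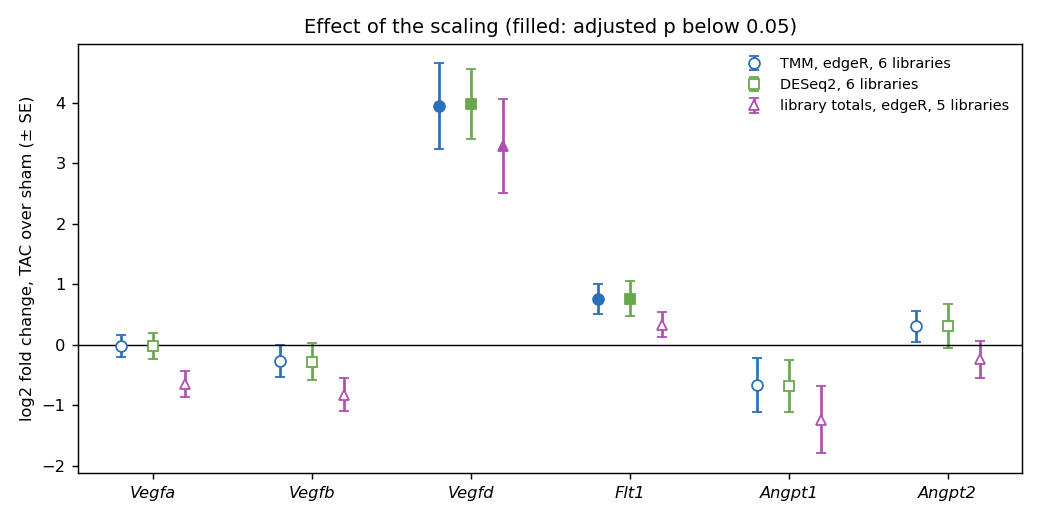
Log2 fold change of TAC over sham quadriceps with its SE for the 6 members under TMM with edgeR, DESeq2 and library totals, with filled points where the adjusted p was below 0.05. The first 2 use 6 libraries, and library totals use 5, without TAC library 4. Vegfd is called under all 3 scalings (3.94, 3.98 and 3.28) and Flt1 under the first 2. Library totals place every member lower than TMM does, on all 6 libraries and also on the same 5 (not drawn).

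With library totals, which were had for 5 libraries, the median of all 586 genes was -0.63 on the log2 scale, and 20 genes were higher and 180 lower. With TMM on the same 5 libraries the median was -0.08, with 65 genes higher and 71 lower, and with TMM on all 6 there were 104 and 70. Relative to that shift, Vegfa at -0.64 lay at the median of the table, Angpt2 and Flt1 above it and Vegfb and Angpt1 below it. The total of TAC library 4 was not used here. With TMM on the 5 libraries, Vegfd (3.90, adjusted p = 0.0193) and Flt1 (0.89, adjusted p = 0.0190) were called higher.

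Of the wider set of angiogenic genes, the co-receptors, the oxygen-sensing factors and the endothelial signaling genes had no member in the TAC table. Of 12 secreted inhibitors and modulators, 11 were tested, with none higher (against 17.7% of all genes) and 2 lower (against 11.9%) after TAC, and the list's median log2 fold change was -0.33. The lower ones were Serpinf1, which encodes the anti-angiogenic pigment epithelium-derived factor, and Thbs4, a thrombospondin of the muscle and tendon matrix. Serpinf1 fell from 697 ± 31.1 to 248 ± 16.8 normalized counts (SD, n = 3, log2 fold change -1.49, SE 0.20, edgeR adjusted p = 0.00288). Thbs4 fell from 2504 ± 146 to 962 ± 85.8 (SD, n = 3, log2 fold change -1.38, SE 0.18, adjusted p = 0.00288).

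Of 13 other secreted angiogenic factors, 9 were tested, with none higher and 1 lower, a share near the 11.9% of all genes, and their median was -0.17. That gene was Angptl2, an angiopoietin-like protein that does not bind Tie2, at 655 ± 62.9 normalized counts in sham and 255 ± 69.6 in TAC (SD, n = 3, log2 fold change -1.36, SE 0.26, edgeR adjusted p = 0.00887). In the lymphatic list only Ccbe1 and Adamts3, which act in the processing of VEGF-C, were tested. The log2 fold change of Ccbe1 was -0.03 (adjusted p = 0.971) and that of Adamts3 -0.98 (SE 0.36, adjusted p = 0.0699), and neither was called. Library totals turned the counts of lower genes to 6, 3 and 1 in these 3 lists, with none higher, against 3.41% higher and 30.7% lower of all genes.

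Between the sham tissues, most of the family was lower in quadriceps than in heart. Kdr was 4.39-fold, Flt4 4.10-fold, Vegfc 3.70-fold and Pgf 3.58-fold lower, while Vegfd alone was higher in quadriceps, 2.62-fold. The count was 1 of 10 higher against 32.1% of the 14906 genes tested with 1 transcript each, and 7 of 10 lower against 33.9%, and nothing is read from these counts, since the comparison was known when the family was picked. With library totals, 1 member was higher and 8 were lower, against 13.6% and 62.0% of all genes. The median log2 fold change was -1.04 over the members and -0.05 over all genes. All 10 passed the filter on low counts, each through the transcript with the most reads, and adjusted p-values come from edgeR's test over 24280 transcripts.

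Levels between genes are given as the deposited RPKM (counts scaled to transcript length and library total). In heart the order was Vegfb at 167 ± 4.23 (SD, n = 3), Vegfa at 80.1 ± 3.75, Kdr at 39.0 ± 1.05, Flt1 at 14.8 ± 1.03 and Angpt1 at 4.83 ± 0.35. Below them stood Flt4 at 2.51 ± 0.31, Vegfc at 2.31 ± 0.39, Pgf at 2.11 ± 0.21, Angpt2 at 1.28 ± 0.11 and Vegfd at 1.18 ± 0.07. Neighbours among Flt4, Vegfc and Pgf overlapped across libraries, as did Angpt2 and Vegfd, and all other neighbours were separate.

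In quadriceps Vegfb stood at 49.4 ± 4.48 RPKM (SD, n = 3) and Vegfa at 43.4 ± 7.32, and these overlapped. Kdr at 5.29 ± 0.69, Flt1 at 4.15 ± 0.44 and Angpt1 at 3.61 ± 1.33 came next and overlapped with their neighbours. Vegfd at 1.85 ± 0.25 was the sixth of the 10 in quadriceps, against the last in heart. Angpt2 at 0.45 ± 0.05, Vegfc at 0.37 ± 0.10, Flt4 at 0.36 ± 0.07 and Pgf at 0.35 ± 0.09 closed the order, with ranges that overlapped between neighbours. Vegfc and Pgf rested on 10 to 29 counts per quadriceps library, so their levels there are the least precise.

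**Figure D3:**
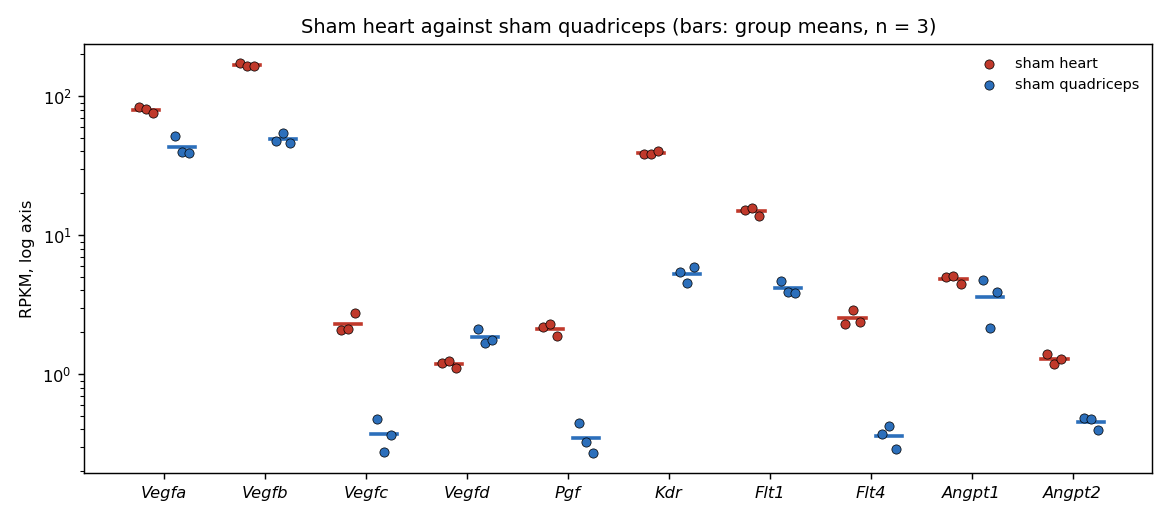
RPKM (log axis) of the 10 members in sham heart and sham quadriceps, 1 point a library with bars at the group means. Kdr falls from about 39.0 in heart to 5.29 in quadriceps, and Vegfc, Pgf, Flt4 and Angpt2 lie below 0.5 in quadriceps. Vegfd is the one member whose quadriceps points lie above its heart points.

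Vegfa differed little between the tissues after TMM scaling. Its TMM-scaled counts relative to library size (CPM) were 228, 218 and 206 in heart and 219, 192 and 180.5 in quadriceps, which overlapped, and the log2 fold change of quadriceps over heart was -0.14 (SE 0.11, edgeR adjusted p = 0.289). With library totals it was -0.88 (adjusted p = 0.000393), and the RPKM values above, which divide by those totals, show the same separation. TMM factors were 1.29 to 1.31 in heart and 0.725 to 0.833 in quadriceps, and library totals moved the median of all genes to -0.80.

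Vegfb was at 170, 159 and 163 TMM CPM in heart and 72.9, 95.6 and 77.4 in quadriceps, without overlap, a log2 fold change of -1.0 (SE 0.12, edgeR adjusted p = 7.11e-05). Per transcript length, Vegfb was 2.07, 2.02 and 2.19 times Vegfa in the heart libraries and 0.920, 1.38 and 1.19 times in the quadriceps libraries. This ratio needs no scaling between libraries, and it was higher in every heart library. In quadriceps after TAC it was 0.777, 1.20 and 0.910, which overlapped with sham quadriceps.

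The lymphatic ligands moved in opposite directions. Vegfc was at 3.02, 3.0 and 3.98 TMM CPM in heart and 1.07, 0.711 and 0.904 in quadriceps (log2 fold change -1.89, SE 0.22, edgeR adjusted p = 5.33e-05). Vegfd (NM_001308489) was at 1.28, 1.29 and 1.16 in heart and 3.49, 3.14 and 3.16 in quadriceps (log2 fold change 1.39, SE 0.16, adjusted p = 4.73e-05). Neither gene overlapped between the tissues. With library totals the difference of Vegfd was smaller, at 0.64, and still called.

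Pgf, a ligand of Flt1 that is low in most adult tissues, was at 2.69, 2.76 and 2.31 TMM CPM in heart and 0.846, 0.711 and 0.565 in quadriceps (log2 fold change -1.84, SE 0.21, edgeR adjusted p = 4.59e-05). The second Pgf transcript, NM_001271705, gave -1.78, and the second transcripts of Vegfb and Vegfd gave -0.96 and 1.5, all called in the same direction. Transcripts of 1 gene share most of their reads and are not independent.

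All 3 receptors were lower in quadriceps, and by unequal amounts. Kdr (chr5:75932827-75978458, minus strand) was at 162, 159 and 168 TMM CPM in heart and 35.1, 34.0 and 42.4 in quadriceps (log2 fold change -2.13, SE 0.12, edgeR adjusted p = 3.34e-07). Flt1 was at 73.5, 74.5 and 65.7 in heart and 35.0, 33.9 and 31.9 in quadriceps (log2 fold change -1.08, SE 0.10, adjusted p = 1.02e-05). Flt4 (chr11:49609263-49652739, plus strand) was at 10.4, 12.7 and 10.6 in heart and 2.57, 3.39 and 2.20 in quadriceps (log2 fold change -2.03, SE 0.17, adjusted p = 5.33e-06).

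Endothelial markers were lower in quadriceps as well, in 8 of 8 cases, against 33.9% of all genes. With library totals 8 of 8 were lower too, against 62.0% of all genes. Their median log2 fold change with TMM was -1.37, and their summed TMM CPM were 329 to 357 in heart and 120 to 136 in quadriceps. Pecam1, the general endothelial adhesion molecule, served as a reference within each library. Kdr per transcript length was 1.17, 1.09 and 1.07 times Pecam1 in heart and 0.607, 0.661 and 0.733 times in quadriceps, so the receptor was lower beside Pecam1 in every quadriceps library. The same held beside 7 of the 8 endothelial markers, and beside Robo4 the tissues overlapped. Flt1 had 0.463, 0.443 and 0.364 times Pecam1 in heart and 0.525, 0.571 and 0.479 times in quadriceps. The direction for Flt1 depended on the marker, since its ratio was higher in every quadriceps library beside 4 of the 8 markers, lower in every one beside Esam and overlapping beside 3.

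The ratio of Kdr to Flt1 was accordingly 2.54, 2.46 and 2.95 in heart and 1.16, 1.16 and 1.53 in quadriceps, with no overlap. Flt4 was 0.0705, 0.0814 and 0.0632 times Pecam1 in heart and 0.0415, 0.0614 and 0.0356 times in quadriceps, also without overlap, and it was lower in every quadriceps library beside 4 of the 8 markers and overlapped beside the other 4. These ratios cover total transcripts of each gene and do not separate membrane and soluble forms of the receptors. The part of endothelial content in the differences of single genes was not tested.

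The genes whose pattern over these 6 libraries was most like that of Kdr were Glg1, Rgs3, Slc26a10 and Lonrf2, at root mean square distances of 0.0519, 0.0602, 0.0641 and 0.0705. With 3 libraries per tissue and 14906 genes to choose from, such closeness describes these libraries only.

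The angiopoietins differed less between the tissues. Angpt1 was at 16.8, 16.6 and 14.7 TMM CPM in heart and 24.7, 12.8 and 22.2 in quadriceps, which overlapped, and its log2 fold change of 0.31 (SE 0.21, edgeR adjusted p = 0.209) was not called. Without sham quadriceps library 2 it was 0.55 (adjusted p = 0.00137), and with library totals it was -0.42 (adjusted p = 0.157), so its direction depended on the scaling. Angpt2 was at 3.84, 3.18 and 3.49 in heart and 2.06, 2.34 and 1.87 in quadriceps (log2 fold change -0.74, SE 0.16, adjusted p = 0.00277). The ratio of Angpt1 to Angpt2 per transcript length was 3.60, 4.29 and 3.47 in heart and 9.90, 4.52 and 9.80 in quadriceps, higher in every quadriceps library although library 2 was close to heart.

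The shares of Vegfa and Vegfb reads that fell in the variable segments differed between the tissues, and no scaling of the libraries touches them, since each share is taken within a gene and a library. The table counts a read on every transcript that it overlaps. Reads of a segment were therefore obtained as the difference between a transcript with the segment and one without it. A read that also overlaps an exon shared by both transcripts counts on both and cancels. For exon 6 of Vegfa and the segment of Vegfb, only reads wholly within the segment are therefore counted. The transcripts compared for exon 7 both lack exon 6, so reads that span exons 6 and 7 do not cancel and count as exon 7. The loss of reads that cancel weighs more on exon 6 of Vegfa (72 bases) than on exon 7 (132 bases). Wholly within exon 6 of Vegfa, printed above, fell 176, 198 and 166 of 10855, 10970 and 8849 reads in heart. In quadriceps 38, 30 and 17 of 5958, 4591 and 3194 reads did. As shares these were 1.62%, 1.80% and 1.88% in heart and 0.638%, 0.653% and 0.532% in quadriceps. The heart mean of 1.77% ± 0.13 (SD, n = 3) was 2.91 times the quadriceps mean of 0.608% ± 0.066 (SD, n = 3), and no 95% Wilson interval of a heart library, at 1.40% or above, reached one of a quadriceps library, at 0.931% or below.

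Exon 7 held 4.88%, 4.78% and 4.66% of Vegfa reads in heart and 3.68%, 4.03% and 3.04% in quadriceps, means of 4.77% ± 0.11 and 3.58% ± 0.50 (SD, n = 3). The groups did not overlap, but the difference was smaller than for exon 6. Because reads that span exons 6 and 7 are among these, in unknown number, the difference of exon 7 is not separate from that of exon 6. Reads of exon 6 per read of exon 7 were 0.332, 0.378 and 0.403 in heart and 0.174, 0.162 and 0.175 in quadriceps. Exon 6 was thus lower in quadriceps also beside exon 7, whose reads here include those that span both exons.

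The variable segment of Vegfb held 4.80%, 4.43% and 5.0% of its reads in heart and 2.37%, 1.31% and 1.53% in quadriceps. The means were 4.74% ± 0.29 and 1.74% ± 0.56 (SD, n = 3), and the groups did not overlap. It rested on 350 to 389 reads per heart library and 21 to 47 per quadriceps library.

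Another 3 Vegfa transcripts in the table are shorter by 687 listed bases or more. Of all Vegfa reads, 29.4%, 31.6% and 31.0% in heart and 21.7%, 21.8% and 20.3% in quadriceps fell on the longest transcript but not on NM_001110266, the longest of these. Splicing and uneven coverage along the transcript cannot be told apart in these shares. The log2 fold change of Vegfa counts was -0.14 for the longest transcript and 0.11 for the shortest, with neither called. Each of the 5 segment comparisons gave p = 0.1 in a two-sided exact permutation test (Benjamini-Hochberg adjusted p = 0.1), which is the smallest value that 3 against 3 libraries allow. The intervals cover counting error only, as the reads carry no molecular identifiers.

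**Figure D4:**
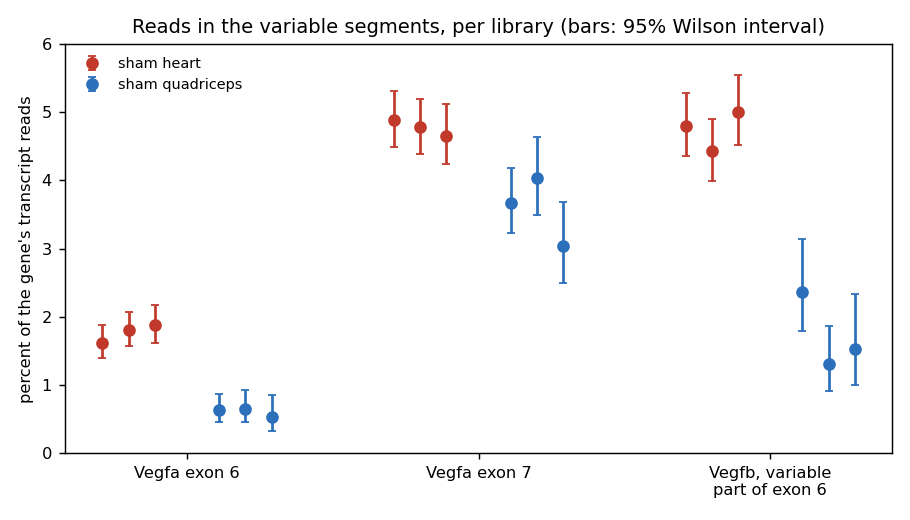
Share of a gene's transcript reads (percent) that fell wholly within the variable segments of Vegfa and Vegfb, 1 point a library with its 95% Wilson interval. All 3 segments take a larger share in every heart library, with exon 6 of Vegfa at 1.62% to 1.88% in heart and 0.532% to 0.653% in quadriceps.

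Of 7 co-receptors and Tie receptors, 6 were tested and all 6 were lower in quadriceps under TMM and under library totals, with a median log2 fold change of -1.33 (TMM). For this and the lists that follow, the shares of all genes are those given above, 32.1% higher and 33.9% lower with TMM and 13.6% and 62.0% with library totals. Nrp2, the co-receptor of lymphatic and venous endothelium, fell by 2.28 on the log2 scale (SE 0.13, edgeR adjusted p = 3.92e-07) and Nrp1, its counterpart for VEGF-A, by 1.23 (SE 0.12, adjusted p = 1.41e-05). Tie1 had -1.49 (SE 0.11, adjusted p = 2.42e-06) and Tek, the Tie2 receptor of both angiopoietins, had -1.43 (SE 0.14, adjusted p = 2.13e-05). The remaining 2 were the heparan sulfate proteoglycan Gpc1 (-1.06) and the endothelial phosphatase Ptprb (-0.54).

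Of 14 genes that act downstream in endothelium, 11 were lower in quadriceps (against 33.9% of all genes) and 1 was higher, with a median of -1.74, and library totals gave 12 lower and 1 higher. Apln and Aplnr, the ligand and the receptor of the apelin pathway of growing vessels, had log2 fold changes of -3.13 (SE 0.32, edgeR adjusted p = 2.39e-05) and -3.09 (SE 0.21, adjusted p = 1.55e-06), and the adaptor Shb had -2.71 (SE 0.21, adjusted p = 3.48e-06). The higher gene was Nr4a1, an immediate early transcription factor, at 2.98 ± 0.60 TMM CPM in heart and 118 ± 73.4 in quadriceps (SD, n = 3, log2 fold change 5.29, SE 0.46, adjusted p = 7.76e-06). Nr4a1 is also induced in muscle fibres themselves.

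The oxygen-sensing list was split, with 3 of 11 higher, 4 lower and a median of 0.08. Hif1a and Epas1, the alpha subunits of the hypoxia-inducible factors, were lower in quadriceps at -1.35 (SE 0.16, edgeR adjusted p = 5.78e-05) and -0.88 (SE 0.15, adjusted p = 0.000631), as was Egln3, a prolyl hydroxylase that marks them for decay, at -1.95 (SE 0.15, adjusted p = 4.15e-06). Higher were Hif1an, the asparagine hydroxylase that blocks their activity, at 1.44 (SE 0.11, adjusted p = 2.96e-06) and the prolyl hydroxylase Egln2 at 1.22 (SE 0.13, adjusted p = 2.93e-05). The nuclear receptor Esrra was higher (0.61) and the coactivator Ppargc1a lower (-0.63). Library totals turned this split to 2 higher and 7 lower.

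In the lymphatic list 1 of 6 was higher and 4 were lower, with a median of -1.41. Prox1, the master transcription factor of lymphatic endothelium, which heart muscle cells also express, was at 28.8 ± 3.88 TMM CPM in heart and 0.717 ± 0.28 in quadriceps (SD, n = 3, log2 fold change -5.36, SE 0.22, edgeR adjusted p = 6.35e-08). Adamts3 (-1.95), Foxc2 (-1.71) and the hyaluronan receptor Lyve1 (-1.12) were lower, and Pdpn was higher at 1.10 (SE 0.17, adjusted p = 0.000296). With library totals 5 were lower and none higher.

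The secreted inhibitors and modulators gave 4 of 12 higher and 6 lower with a median of -0.38. The other angiogenic factors gave 5 of 13 higher and 5 lower with a median of 0.30. Thbs4 was the furthest among the inhibitors and modulators, at 7.23 ± 1.05 TMM CPM in heart and 106 ± 0.66 in quadriceps (SD, n = 3, log2 fold change 3.88, SE 0.13, edgeR adjusted p = 1.44e-08). The chemokine Cxcl12 (-1.77), Vash1 (-1.65), which endothelium makes in response to VEGF, and Col4a3 (-1.57) were lower. Also higher in that list were Adamts1 (0.85), Serpinf1 (0.78) and Timp3 (0.61). Among the other factors, Angptl7 (2.77), Angptl4 (1.74), Angptl1 (1.35), Angptl6 (0.89) and Pdgfa (0.51) were higher, and Fgf1 (-2.22), Pdgfd (-1.90), Pdgfc (-0.83), Pdgfb (-0.49) and Angptl2 (-0.44) were lower. Library totals turned these counts to 1 higher and 7 lower and to 1 higher and 6 lower.

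**Figure D5:**
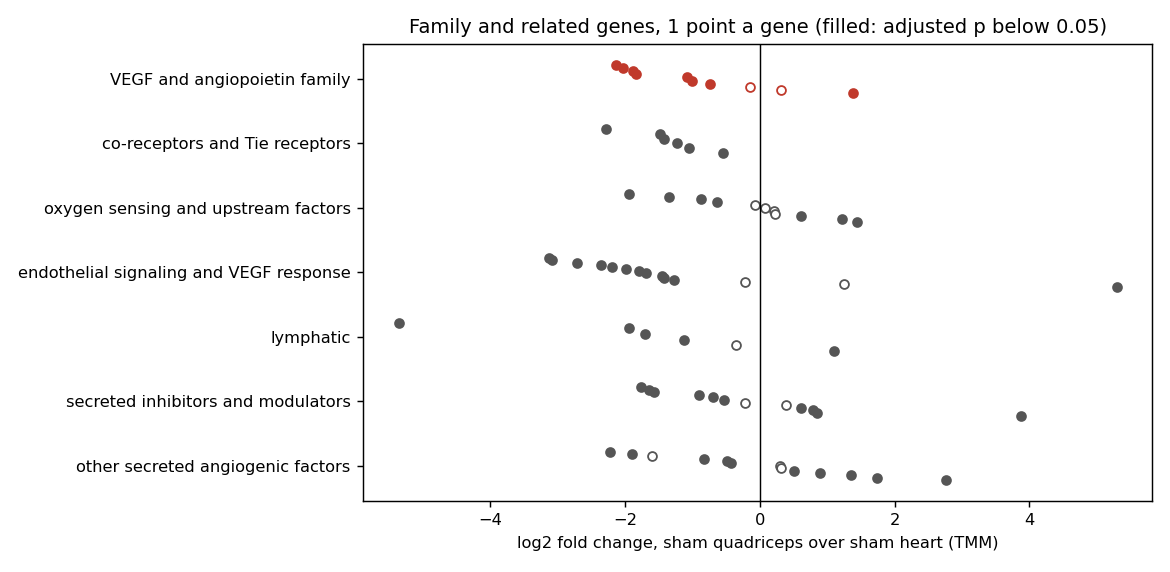
Log2 fold change of sham quadriceps over sham heart for the 10 family members and 6 lists of related genes, 1 point a gene, filled where the adjusted p was below 0.05. The co-receptors lie wholly below 0, most endothelial signaling genes lie below 0 apart from Nr4a1 at 5.29, and the other lists fall on both sides.

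Markers of further cell types also differed between the sham tissues. Pericyte and smooth muscle markers were lower in quadriceps in 5 of 8 cases, fibroblast markers in 4 of 7 and macrophage markers in 6 of 7, and none of these lists had a higher gene, while 33.9% of all genes were lower. With library totals all 8, all 7 and all 7 were lower, against 62.0% of all genes. Adipocyte markers were higher in 5 of 5, with summed TMM CPM of 0.419 to 1.53 in heart and 114.6, 50.2 and 14.3 in quadriceps libraries 1, 2 and 3. In the same quadriceps libraries the Vegfd transcript NM_001308489 was at 3.49, 3.14 and 3.16 TMM CPM and NM_010216 at 3.97, 2.93 and 2.49. Both were highest in library 1, and the part of fat in these values was not tested.

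The promoters of the family were searched for ACGTG and GCGTG, cores of the sites bound by hypoxia-inducible factors, on both strands in the 250 bases before each RefSeq transcription start (GRCm38.p6). Windows were given for 8 of the 10 genes and not for Angpt1 or Angpt2. Of 10 windows, 5 held at least 1 core, against 38.6% of all 32851 windows. Vegfb, Kdr and the window of the downstream Vegfa start had 2 each, the last with the one ACGTG found. That window lies inside the Vegfa gene, so its matches are not in sequence before the gene. The Pgf and Flt4 windows also lie within the bounds of their genes. Neither the Vegfd window nor that of the upstream Vegfa start held any core. A match is a description of letters and not a site. Sequence outside the 250 bases was not searched, so an empty window does not show that a gene lacks such a site.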

How the data were processed

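Libraries of sham heart, sham quadriceps and TAC quadriceps, 3 each, were compared. Reads were trimmed (Trim Galore) and aligned to mm10 (STAR) by the authors, who deposited raw counts for each RefSeq transcript. The authors also deposited RPKM values, that is counts scaled to listed length and to the library's total. Fold changes, scores and p-values of the authors' own edgeR comparisons stand in both tables and were not used. A further 1 column of a single library, the RPKM values of TAC library 4, was left out because it could not be tied to a sample. The counts of that library could not be tied to a numbered sample label either, but were used as the third TAC library. Library totals for TAC therefore rest on 5 libraries.

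Counts above 5 in at least 2 libraries were kept and tested with edgeR 4.0.16 (R 4.3.3), using TMM, the quasi-likelihood F-test and Benjamini-Hochberg adjustment over the whole table, with a threshold of 0.05. Since the TAC table lists only selected genes, its TMM factors refer to the listed genes. Library totals were recovered from counts, lengths and RPKM. The study calls its replicates biological, and the labels do not tie a library to an animal. Alternatives were DESeq2 1.42.0, library totals, other filters, the replicate number as a block, other transcripts, the study's criteria and leaving out each library.

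The family members and all gene lists were chosen with earlier results of these data known. Named were all 10 members, up to 4 called genes per related list with the largest fold changes, the genes Tek, Tie1, Nrp1, Nrp2, Hif1a and Epas1, and the 4 genes most like the member that changed most. Col3a1, Pecam1, Vwf, Egfl7, Reln, Ccbe1, and the remaining called genes of short lists were named as markers or to complete a count, after their values were seen. Positions and segments come from GENCODE vM21 (GRCm38), while the deposited tables hold no coordinates. Segment shares were computed in Python 3.11.15 with scipy 1.17.1. The edgeR procedure was tested on simulated data.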

Additional observations from a re-analysis of the deposited data

How the results depend on the processing

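Between the sham tissues, 110 of 114 values of single members under the alternatives kept direction and call, 2 turned and 2 gained a call. For TAC it was 61 of 72, while 9 lost a call (all of Flt1), 1 gained one and 1 turned. The number of members higher after TAC was 2, and it was 1 with library totals, with at least 10 counts in every library, with the replicate block on the 4 libraries numbered 1 and 2, in the same 4 libraries without the block and under the study's criterion (log2 fold change of at least 1 with an unadjusted p). It ranged from 1 to 2 when single libraries were left out, and the member lost was Flt1 each time. The number lower after TAC ranged from 0 to 1 without single libraries, the 1 being Angpt1 without TAC library 2. Between the sham tissues, 1 member was higher, ranging from 1 to 2 without single libraries (Angpt1 without sham quadriceps library 2), and 7 were lower (8 with library totals). The study's criterion (log2 fold change over 2) gave 0 higher and 2 lower, Kdr and Flt4. Directions turned for Angpt2 after TAC with library totals (-0.24), for Angpt1 between the tissues with library totals (-0.42) and for Vegfa with the transcript of fewest counts (0.11), none of them called. The causes were not tested.

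With the replicate number as a block between the sham tissues, the replicate block gave 1 higher and 7 lower, as without it. Same-numbered libraries did not deviate together, with correlations of 0.023, -0.097 and -0.0093 between the tissues and of 0.079 and -0.18 in the TAC table, so the numbers were not taken to pair samples. Depth limited Vegfc and Pgf in quadriceps and the segment shares there.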
